A study of Mus musculus with 52 samples.

Results

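The RUNX transcription factor genes Runx1, Runx2 and Runx3 and the gene of their shared partner, Cbfb, were described in single cells of mouse bone marrow. They are 4 of the 28786 gene entries of the deposited count table, and each was matched to 1 entry by its Ensembl identifier. All cells carried the same label, primed HSCs (haematopoietic stem cells), and their donors were C57BL/6 mice, 6 to 8 weeks old, with the genotype Cd4-cre;R26Tdtomato. The Cd4 sequences of such a transgene drive Cre recombinase, which switches on the red reporter tdTomato, so the reporter marks cells in which they are or were active. Marrow was taken from femora and tibiae and treated with ammonium chloride to lyse red cells. Libraries were made by Smart-seq2, which copies full-length cDNA from single cells in wells without molecular identifiers. The sort gate, the number of animals and what "primed" stands for were not given in the sources used here. The study holds 1 group and no control, so levels are described over cells, no p-value is given, and cells are not replicates of a condition.

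RUNX proteins bind DNA through a Runt domain and pair with CBF-beta, the product of Cbfb, which does not bind DNA itself but strengthens the binding of its partner. Runx1 is needed for blood stem cells to arise in the embryo and for platelet and lymphocyte formation in the adult. Runx3 is best known from cytotoxic T cells, where it silences Cd4, and Runx2 is best known as the main regulator of bone formation.

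Of the 52 cells, 49 passed the filter (50000 reads or more, 1000 genes with a read or more, and a mitochondrial share of 20% or less). The kept cells held 85519 to 12446479 reads, with a median of 2187580. Clustering that left the 4 genes out gave 30 cells led by erythroid genes, 18 cells led by stem cell genes, and cell 34 alone. The first are called erythroid-like (Klf1, Gata1, Epor, Car1 and 5 other markers of 12 were higher there than in the rest) and the second HSC-like (Meis1, Hlf, Mecom, Cd34, Erg and 3 other markers of 12). The HSC markers Procr, Slamf1, Ly6a and Kit did not pass the limits for this (1 log2 unit above the rest, a read in 50% of the cells). In the HSC-like cells 5 of 9 megakaryocyte markers and 3 of 9 neutrophil and monocyte markers were also higher. Cell 34 was led by Lyz2 and Tyrobp, genes of neutrophils and monocytes, followed by Cd74. Of the fixed markers, 5 of 9 of neutrophils and monocytes and 3 of 7 of dendritic cells (Cd74, H2-Ab1 and Irf8) were higher there. The median depth was 1192450 reads in HSC-like cells and 2993790 reads in erythroid-like cells. T cell markers were near 0: Cd4, Cd3e, Cd3g, Trbc2 and Bcl11b had no read in either class, and the summed level of the 8 T cell markers reached 198 CPM in 1 HSC-like cell (a read count scaled by the cell's total) and 8.86 CPM in erythroid-like cells. Cell 9, the shallowest, held 7811 CPM of B cell markers. Results that rest on cells 9, 13, 23 and 34, singled out in earlier work on these data, were also computed without them.

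The 3 Runx genes have in common a tandem of the RUNX core motif near a transcription start, which is the distal one in Runx1 and Runx3 and the 1 start with a window in Runx2. In the promoter windows of RefSeq (GRCm38.p6, 250 bases before to 50 after a gene's start), a script looked for ACCACA or its reverse complement TGTGGT on both strands. The stretches that hold the tandem are shown because the 3 genes share it: each is 30 bases, 5′ to 3′ on the gene's own strand, with the motif in capitals.
Runx1: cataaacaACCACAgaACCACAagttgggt
Runx2: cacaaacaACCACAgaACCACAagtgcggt
Runx3: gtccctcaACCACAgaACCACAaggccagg

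The 14 bases from the first motif to the second were identical in the 3 genes. The Runx1 stretch lies at chr16:92826025-92826054 on the minus strand. Its first motif begins at base 29 counted from the RefSeq start, inside a GENCODE exon of the gene. The Runx2 stretch lies at chr17:44814583-44814612 on the minus strand, with its first motif at base 24 from the RefSeq start, also inside an exon of its gene. Gene positions given below are those of GENCODE, where Runx1 and Runx2 begin upstream of these RefSeq starts. The Runx3 stretch lies at chr4:135120503-135120532 on the plus strand. Its first motif begins 134 bases before the RefSeq start, outside the exons of Runx3, and exons of other genes were not examined. The tandem of 2 copies of ACCACA with 2 bases between them, read on either strand, was in 7 of 32817 windows (0.0213%). The genes of those windows were Runx1, Runx2, Runx3, Gm12236, Gm15462, Gm16225 and Olfr24. Gm16225 is on chromosome 4, as Runx3 is, and whether its window holds the same site was not examined. One or more single copies of ACCACA or TGTGGT were in 5500 windows (16.8%), so a single copy is common. The windows at the proximal starts of Runx1 and Runx3 and the window of Cbfb held 0 copies. A match describes these letters and is no measured binding. Counts were made per gene, so transcripts from a distal and a proximal start cannot be told apart here.

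Runx1 (ENSMUSG00000022952, chr16:92601466-92826149, minus strand) was found with 1 read or more in 39 of 49 cells. Its level ran from 0 over a median of 40.4 to 399 CPM, the highest being in cell 16 with 233 reads. The mean was 82.4 ± 114 CPM (SD over 49 cells). A read was present in 79.6% of cells (exact Clopper-Pearson 95% interval 65.7 to 89.8), and 33 cells reached 10 CPM (67.3%, interval 52.5 to 80.1). Its distribution was uneven: 12 cells reached 100 CPM, while 10 had no read and 6 lay between 0 and 10 CPM. The next highest cells, 15 and 20, held 377 and 376 CPM, close to the highest.

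Runx2 (ENSMUSG00000039153, chr17:44495987-44814797, minus strand) was the rarest of the 4. Its level ran from 0 over a median of 0 to 207 CPM, the highest being in cell 26 with 99 reads. It was found in 20 cells (40.8%, interval 27 to 55.8), and 11 cells reached 10 CPM (22.4%, interval 11.8 to 36.6). The mean was 19.6 ± 43.8 CPM (SD over 49 cells), and 6 of the 20 cells with a read had only 1 to 3. The antisense gene Runx2os1 shares 519 exonic bases with Runx2 and Gm26626 shares 106 with Runx1, and neither was analysed here. The strand setting of the counting was not given in the sources used here, so reads of these overlaps cannot be assigned.

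Runx3 (ENSMUSG00000070691, chr4:135120652-135177990, plus strand) was found in 40 cells, about as often as Runx1. Its level ran from 0 over a median of 22.8 to 515 CPM, the highest being in cell 33 with 402 reads. The mean was 67.5 ± 103 CPM (SD over 49 cells). A read was present in 81.6% of cells (interval 68.0 to 91.2), and 29 cells reached 10 CPM (59.2%, interval 44.2 to 73.0). Cell 33 stood above cells 14 and 44, which came next with 345 and 283 CPM. Low values were more frequent than for Runx1, with 11 cells between 0 and 10 CPM.

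Cbfb (ENSMUSG00000031885, chr8:105170674-105217989, plus strand) was found in 38 cells (77.6%, interval 63.4 to 88.2). Its level ran from 0 over a median of 43.8 to 414 CPM, the highest being in cell 36 with 458 reads. The mean was 77.0 ± 98.3 CPM (SD over 49 cells), and 32 cells reached 10 CPM (65.3%, interval 50.4 to 78.3). The shares of cells with Runx1, Runx3 and Cbfb lay within each other's intervals, and that of Runx2 lay below the interval of each of the others. Intervals cover counting error only.

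To compare the genes with each other, the mean CPM was divided by the exonic length of each gene. Cbfb was then the highest at 26.4 ± 33.7 CPM per kb of exon, over 2.91 kb (SD over 49 cells). Runx3 followed at 16.2 ± 24.7 CPM per kb over 4.18 kb, Runx1 at 11.1 ± 15.3 CPM per kb over 7.45 kb, and Runx2 at 2.77 ± 6.18 CPM per kb over 7.09 kb. Neighbours in this order did not differ beyond their spread over cells. On the scale of medians, Cbfb stood at 15 CPM per kb, Runx3 at 5.46, Runx1 at 5.42 and Runx2 at 0.

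**Figure D1:**
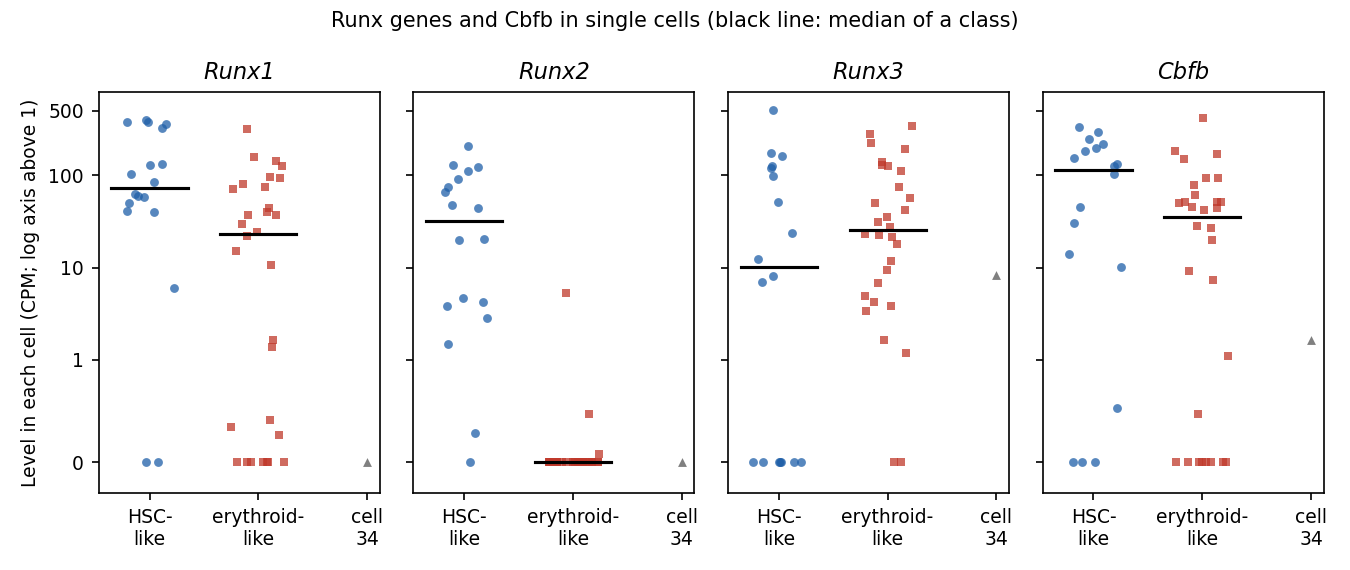
Level of Runx1, Runx2, Runx3 and Cbfb in each of 49 cells (CPM, linear from 0 to 1 and logarithmic above), by class from clustering without the 4 genes: 18 HSC-like cells (blue circles), 30 erythroid-like cells (red squares) and cell 34 (grey triangle). The black line is the median of a class, and Runx2 reached 10 CPM in 11 HSC-like cells and in 0 erythroid-like cells.

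Runx2 was found mostly in HSC-like cells. In HSC-like cells it ran from 0 over a median of 32.3 to 207 CPM, against 0 over a median of 0 to 5.32 CPM in erythroid-like cells. A read was found in 17 of 18 HSC-like cells (94.4%, interval 72.7 to 99.9) and in 3 of 30 erythroid-like cells (10%, interval 2.11 to 26.5). At 10 CPM or more the counts were 11 of 18 HSC-like cells and 0 of 30 erythroid-like cells (which allows a share of up to 10%, 3 counts of 30), and those 11 cells lay above every erythroid-like cell. After all cells were thinned to 85519 reads, the depth of the shallowest, Runx2 had a read in 9 HSC-like cells and in 0 erythroid-like cells. The erythroid-like cells were the deeper class. The mean was 53.1 ± 59.6 CPM in 18 HSC-like cells and 0.196 ± 0.973 CPM in 30 erythroid-like cells (SD over cells). For scale, the ratio of HSC-like over erythroid-like means was 2 or more in 19.5% of 9158 genes. Genes of bone cells were rarely found: of 12 genes of bone formation, 6 had no read in any cell, among them Sp7 and Alpl. How many of all gene entries had no read is not given here, so that count has no background. Col1a2 had a read in 8 cells, 5 of them at 10 CPM or more, and Vegfa in 7, 3 of them at that level. None of the 12 passed the filter for correlation, so whether they went with Runx2 was not examined.

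Runx1 and Cbfb were also higher on average in HSC-like cells, with wide overlap. Runx1 ran from 0 over a median of 73.4 to 399 CPM in HSC-like cells, against 0 over a median of 23 to 317 CPM in erythroid-like cells. Its mean was 145 ± 148 CPM in 18 HSC-like cells and 47.6 ± 69.1 CPM in 30 erythroid-like cells (SD over cells), a ratio of 3.04. In 5 HSC-like cells Runx1 lay above every erythroid-like cell, and a read was found in 16 of 18 HSC-like and 23 of 30 erythroid-like cells. Cbfb ran from 0 over a median of 114 to 334 CPM in HSC-like cells, against 0 over a median of 35.4 to 414 CPM in erythroid-like cells. The mean of Cbfb was 116 ± 111 CPM in HSC-like cells and 55.9 ± 85 CPM in erythroid-like cells, a ratio of 2.08. Both ratios are past the mark that 19.5% of genes passed. The clusters were drawn from the same cells and no test between them was made.

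Runx3 showed no such tilt. It ran from 0 over a median of 10.2 to 515 CPM in HSC-like cells, against 0 over a median of 25.4 to 345 CPM in erythroid-like cells. The mean was 72.3 ± 127 CPM in HSC-like cells and 66.7 ± 89.9 CPM in erythroid-like cells, a ratio of 1.08. On the log2(CPM + 1) scale the sign was opposite, with a difference of -1.01 between the class means (HSC-like minus erythroid-like). A read was found in 11 of 18 HSC-like cells (61.1%, interval 35.7 to 82.7) and in 28 of 30 erythroid-like cells (93.3%, interval 77.9 to 99.2). After thinning to the shallowest cell the counts were 9 of 18 HSC-like and 25 of 30 erythroid-like cells. Cell 34 held 8.28 CPM of Runx3, 1.66 CPM of Cbfb and no read of Runx1 or Runx2.

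The HSC-like cells numbered 2, 3, 13 and 38 were placed with the erythroid-like cells when k-means was used in place of Ward's method. Set apart from the other 14 HSC-like cells, a choice made after the data were seen, they had lower means of Runx1 and Cbfb. These 4 cells also carried erythroid genes, with 505 to 1160 CPM of Klf1. Runx1 averaged 57.0 ± 21 CPM in these 4 cells and 170 ± 159 CPM in the other 14. Cbfb averaged 19.1 ± 22.6 CPM in the 4 cells and 144 ± 110 CPM in the other 14. Runx2 was at a like level in both, at 51.7 ± 37.2 CPM in the 4 cells and 53.5 ± 65.8 CPM in the other 14. Under k-means, with these cells counted as erythroid-like, the Runx2 mean of that class was 6.25 CPM.

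Whether Runx1 and Runx3 are shared by a cell or exclude each other was counted at 3 marks. With 1 read as the mark, 30 of 49 cells held both, 9 held Runx1 without Runx3, 10 held Runx3 without Runx1, and 0 held neither. At 10 CPM or more, 18 cells held both, 15 Runx1 alone of the pair, 11 Runx3 alone and 5 neither. At 100 CPM or more, 1 cell held both, 11 Runx1 alone, 12 Runx3 alone and 25 neither. The 1 cell high in both was cell 46, an erythroid-like cell with 159 CPM of Runx1 and 140 CPM of Runx3.

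Put as shares, Runx3 was found in 30 of the 39 cells with Runx1 (76.9%, interval 60.7 to 88.9) and in 10 of the 10 cells without it (100%, interval 69.2 to 100). At 10 CPM the shares with Runx3 were 54.5% of 33 cells with Runx1 and 68.8% of 16 cells without it. At 100 CPM they were 8.33% of 12 cells with Runx1 (interval 0.211 to 38.5) and 32.4% of 37 cells without it (interval 18 to 49.8). At every mark the share was lower among cells with Runx1, and at every mark the intervals overlapped.

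Cells without a read of one gene were compared with the rest for the level of the other. In the 9 cells without a Runx3 read, Runx1 ran from 37.1 over a median of 134 to 399 CPM, against a median of 26.8 CPM in the 40 cells with one. In the 10 cells without a Runx1 read, Runx3 ran from 1.17 over a median of 53.8 to 515 CPM, against a median of 21.7 CPM in the 39 cells with one. The range of Runx3 in those 10 cells was wide, and 4 of them reached 100 CPM. Of the 10 cells highest in Runx1, 5 had no Runx3 read, and of the 10 highest in Runx3, 4 had no Runx1 read. HSC-like cells, whose mean of Runx1 was higher, made up 7 of the 9 cells without Runx3 and 2 of the 10 without Runx1. They made up 7 of the 10 cells highest in Runx1 and 4 of the 10 highest in Runx3. The part of class in these levels was not tested. The 9 cells without Runx3 held 424465 to 12446479 reads with a median of 1331850, and the 10 without Runx1 held 85519 to 3422374 with a median of 864438. Both medians lie below that of all kept cells, 2187580, and the part of depth in the missing reads was not tested.

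**Figure D2:**
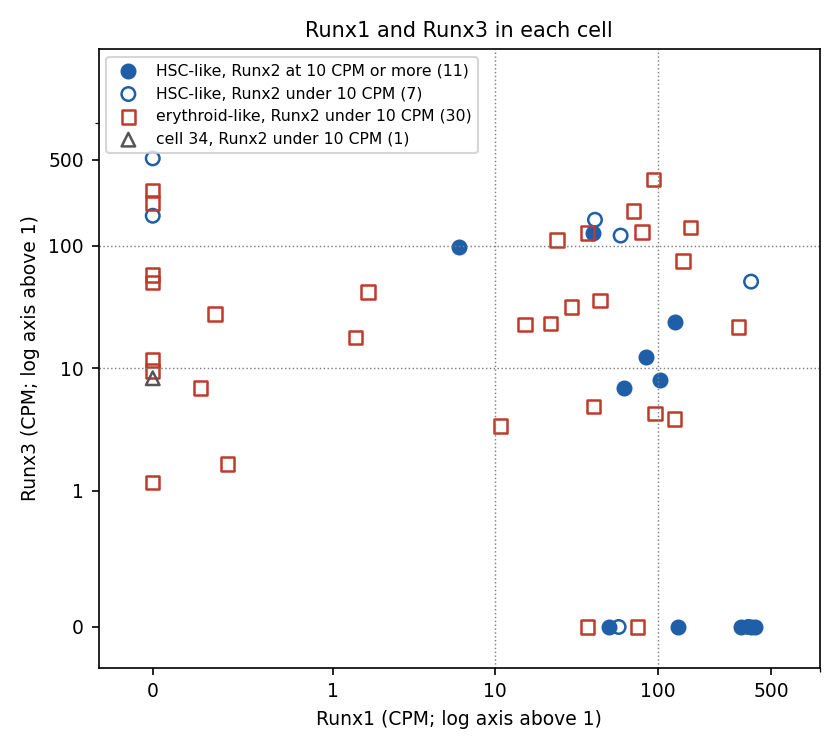
Level of Runx1 (x axis) against Runx3 (y axis) in each of 49 cells, both in CPM, linear from 0 to 1 and logarithmic above, with dotted lines at 10 and 100 CPM. Filled blue circles are HSC-like cells with Runx2 at 10 CPM or more (11), open blue circles other HSC-like cells (7), red squares erythroid-like cells (30) and the triangle cell 34. The field above 100 CPM of both genes holds 1 cell.

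Runx1 and Runx3 stood apart most clearly among HSC-like cells. Among 18 HSC-like cells, 9 held both genes with 1 read or more, 7 Runx1 alone, 2 Runx3 alone and 0 neither. At 100 CPM none of the 18 held both, 8 held Runx1 and 5 held Runx3. Of the 5 HSC-like cells with 326 to 399 CPM of Runx1, cells 7, 16, 20 and 41 had no Runx3 read and cell 15 held 50.9 CPM. Cells 33 and 52, with the highest Runx3 levels of the class at 515 and 175 CPM, had no Runx1 read. Among 30 erythroid-like cells, 21 held both with 1 read or more, 2 Runx1 alone, 7 Runx3 alone and 0 neither. Runx1 stood above Runx3 in 12 of 18 HSC-like cells and in 10 of 30 erythroid-like cells.

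Over 49 cells, Spearman's rho of Runx1 with Runx3 was -0.29, and leaving out any 1 cell gave -0.33 to -0.25. It was -0.68 over the 18 HSC-like cells and 0.05 over the 30 erythroid-like cells. Within the HSC-like class, leaving out any 1 cell gave -0.77 to -0.61, leaving out cells 15 and 16 (farthest from the median of Runx1) gave -0.75, and thinning to 85519 reads gave -0.67. Over the 14 HSC-like cells without numbers 2, 3, 13 and 38 it was -0.58. Within the erythroid-like class, leaving out any 1 cell gave -0.01 to 0.14. These are descriptions over cells that share library preparation, and the difference between the classes was not tested. Over the 36 cells with 1000000 reads or more, thinned to that number, rho was -0.06, and that set held 11 of the HSC-like cells beside 25 erythroid-like ones.

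Taking Runx2 in, no cell lacked all 3 Runx genes at 1 read. The most frequent combination was Runx1 with Runx3, in 19 cells, all erythroid-like. All 3 genes were found in 11 cells, 9 of them HSC-like, and Runx1 with Runx2 in 7 cells, 6 of them HSC-like. Runx3 alone was found in 8 cells (7 erythroid-like and cell 34), Runx1 alone in 2, Runx2 with Runx3 in 2 (cells 33 and 52), and Runx2 alone in 0. At 10 CPM, 7 cells held Runx1 with Runx2, all HSC-like, and 3 HSC-like cells (13, 32 and 38) held all 3 genes. At that mark 5 cells held none of the 3, and these were 4 erythroid-like cells and cell 34.

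**Figure D3:**
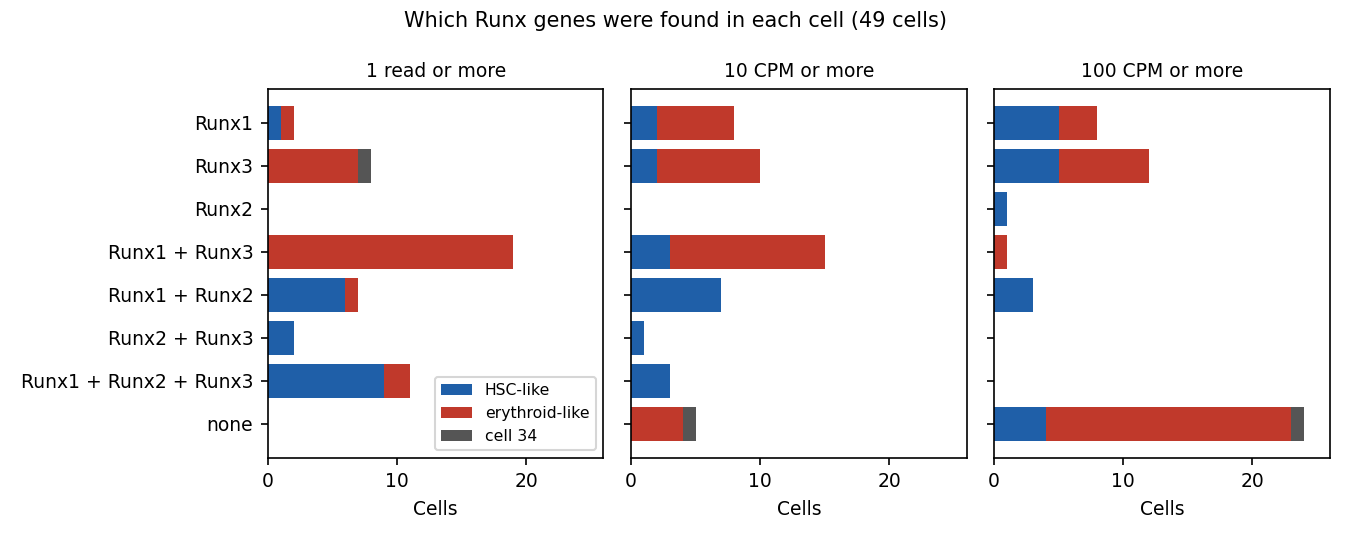
Number of cells (x axis) with each combination of Runx genes, at 1 read or more, 10 CPM or more and 100 CPM or more, stacked by class: HSC-like (blue), erythroid-like (red) and cell 34 (grey). Runx1 with Runx3 counts 19 cells at 1 read, 15 at 10 CPM and 1 at 100 CPM, and no combination with Runx2 at 10 CPM or more includes an erythroid-like cell.

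The summed level of the 3 Runx genes varied less over cells than any of its parts. The sum ran from 1.17 CPM in cell 17 over a median of 159 to 529 CPM in cell 16. Its coefficient of variation was 0.879, against 1.38 for Runx1, 2.24 for Runx2 and 1.53 for Runx3, and that of Cbfb was 1.28. A sum of genes that vary apart is steadier than its parts by construction. In the 11 cells without a Cbfb read the sum ran from 2.07 over a median of 135 to 397 CPM, against a median of 160 CPM in the 38 cells with one. Those 11 cells were 3 HSC-like and 8 erythroid-like cells with a median depth of 2887970 reads.

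Among the other pairs, Runx1 and Runx2 went together most, with rho 0.44 over 49 cells (0.40 to 0.48 with any 1 cell left out). Within classes it was 0.33 over HSC-like and 0.20 over erythroid-like cells. Of the 20 cells with Runx2, 18 also held Runx1. Runx1 with Cbfb had rho 0.27 over 49 cells, 0.07 over HSC-like and 0.27 over erythroid-like cells. With 1 read as the mark, Cbfb was found in 76.9% of 39 cells with Runx1 and in 80% of 10 cells without it. At 10 CPM the shares were 69.7% of 33 and 56.25% of 16 cells. At 100 CPM, 8 of the 12 cells with Runx1 also held Cbfb (66.7%, interval 34.9 to 90.1), against 6 of the 37 without Runx1 (16.2%, interval 6.19 to 32). After thinning to the shallowest cell the shares at 100 CPM were 45.5% of 11 and 18.4% of 38 cells, and their intervals overlapped. Runx2 with Cbfb stood at 0.20, Runx2 with Runx3 at -0.13 and Runx3 with Cbfb at -0.18 over 49 cells, all weak.

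Depth and cell identity moved with the members to different degrees. The correlation with total reads over 49 cells was -0.06 for Runx1, -0.25 for Runx2, 0.07 for Runx3 and -0.22 for Cbfb. Meis1, a stem cell homeobox gene, had rho 0.45 with Runx1, 0.72 with Runx2, -0.20 with Runx3 and 0.35 with Cbfb. Klf1, the erythroid master regulator, had rho -0.07 with Runx1, -0.53 with Runx2, 0.29 with Runx3 and -0.21 with Cbfb. Mki67, a proliferation marker, had rho -0.59 with Runx2, and between -0.23 and 0.09 with the other 3 genes. Runx2 was thus the member whose level lay closest to the axis from erythroid-like to HSC-like cells.

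**Figure D4:**
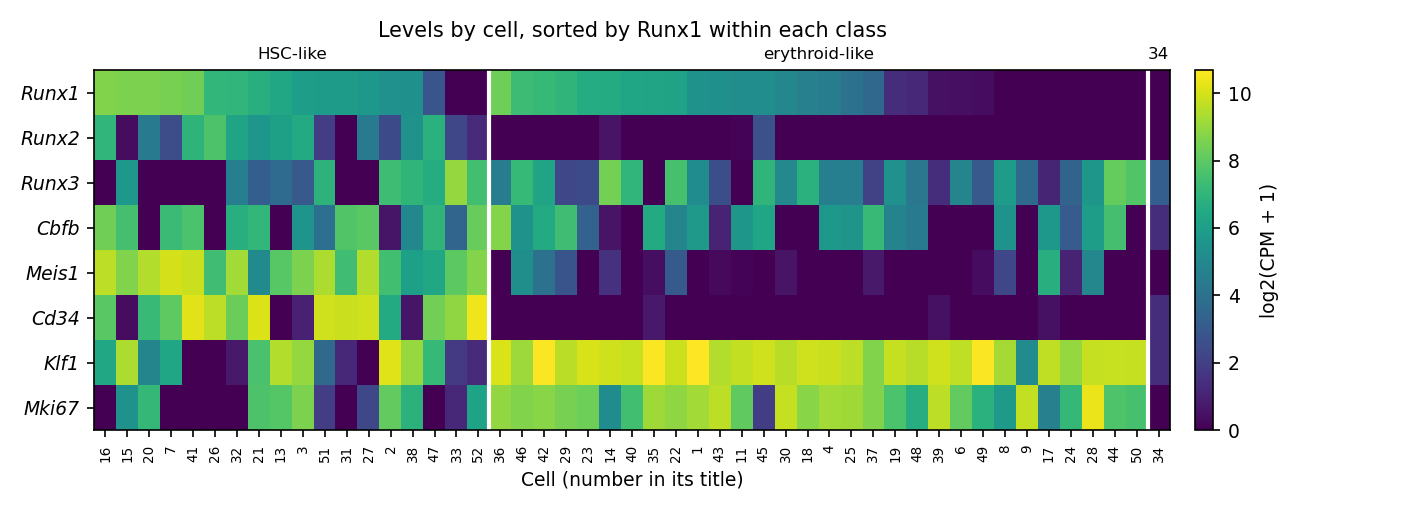
Level of the 4 genes and of 4 genes that mark the classes (Meis1 and Cd34 for stem cells, Klf1 for erythroid cells, Mki67 for proliferation) in each of 49 cells, as log2(CPM + 1) by colour. Cells are sorted by Runx1 within each class, with HSC-like cells left, erythroid-like cells next and cell 34 at the right end, and dark Runx3 cells sit under several of the brightest Runx1 cells of the HSC-like class.

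The genes whose levels over cells were most like each member's were taken from 9157 genes with a mean of 5 CPM or more and a read in 10 cells or more. The measure was Spearman's rho of CPM over the 49 kept cells, which share library preparation and differ in depth. As the mark for a gene that went with a member, rho of 0.4 was used.

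For Runx1, 72 genes reached 0.4 (0.786% of those compared) and 28 reached -0.4 (0.306%), or 160 without cells 9, 13, 23 and 34. On cells thinned to 1000000 reads the counts were 192 and 374, so that the larger side was the other one, and with Pearson correlation 16 reached -0.4. The highest were Pak1, a kinase of actin remodelling (0.64), Arhgef2, an activator of RhoA (0.60), Irf2, a repressor of interferon response (0.55), Btg2, an antiproliferative gene (0.55), and Tet1, a DNA demethylase (0.54). Mcrip1 (0.52), Itga2b, the integrin subunit CD41 of megakaryocytes and early blood progenitors (0.51), and Casp6, a caspase (0.50), completed the 8. All 8 had a positive rho within both classes, from 0.44 to 0.68 over HSC-like cells and from 0.21 to 0.57 over erythroid-like cells. The same cells served to pick these genes. Pak1 had a read in 26 cells at 42.4 ± 86.2 CPM, and Arhgef2 in 46 cells at 247 ± 247 CPM (SD over 49 cells). At the other end stood Rgs10, a regulator of G protein signalling (-0.64), Uqcrfs1, a subunit of respiratory complex III (-0.50), Rack1, a ribosome-bound scaffold (-0.48), and Mrps10, a mitochondrial ribosomal protein (-0.48). Rgs10 was negative in both classes, at -0.54 over HSC-like and -0.52 over erythroid-like cells.

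For Runx2, 235 genes reached 0.4 (2.57%) and 290 reached -0.4 (3.17%), or 686 without the same 4 cells. With Pearson correlation 156 reached 0.4, and 149 did among genes with a read in 25 cells. Among the 8 highest were Serpina3g (0.76), Myct1 (0.74), Meis1 (0.72), Coro1a, an actin regulator of leukocytes (0.71), Crlf2, the receptor of the cytokine TSLP (0.70), Fxyd5 (0.70) and Cd34, a surface marker of progenitors (0.69). Serpina3g belongs to a family of near-identical genes, so its estimated counts are uncertain. Within HSC-like cells, none of these 7 reached 0.4 (range -0.17 to 0.31), and within erythroid-like cells, where 3 cells held Runx2, only Coro1a did (0.45). These genes thus went with Runx2 between the classes and not among HSC-like cells. The lowest were Fbxo5, an inhibitor of the anaphase-promoting complex (-0.65), Ran, the GTPase of nuclear transport (-0.61), Slc25a5, the ADP/ATP carrier (-0.60), and Mki67 (-0.59).

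For Runx3, 80 genes reached 0.4 (0.874%) and 11 reached -0.4 (0.12%), or 20 without the 4 cells. On cells thinned to 1000000 reads the counts were 126 and 45. The highest were Snx15, a sorting nexin (0.59), Pcbd2 (0.58), Stn1, a telomere maintenance factor (0.54), Kdm6a, a histone H3K27 demethylase (0.53), Prkaca, the catalytic subunit of protein kinase A (0.53), Pecr, an enzyme of fatty acid metabolism (0.52), Trip6 (0.52) and Map3k7, the kinase TAK1 (0.51). All 8 were positive within both classes, from 0.37 to 0.78 over HSC-like cells and from 0.32 to 0.65 over erythroid-like cells. Here too the same cells served to pick the genes. Most had low means, such as 23.1 ± 42 CPM for Stn1 with a read in 20 cells. The lowest were Cops5, a subunit of the COP9 signalosome (-0.46), Psmb6, a proteasome subunit (-0.45), Mfsd13a (-0.45) and Med28, a Mediator subunit (-0.44). None of these genes is on the T cell or NK marker lists. Most markers of those lists had too few reads to be compared, so their absence here says nothing about Runx3.

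For Cbfb, 136 genes reached 0.4 (1.49%) and 194 reached -0.4 (2.12%), or 378 without the 4 cells. Thinned to 1000000 reads, 473 reached -0.4, and with Pearson correlation 81 reached 0.4 and 63 reached -0.4. The highest were Arpc1b, a subunit of the Arp2/3 complex (0.66), Tap1, the peptide transporter of antigen presentation (0.63), H2afy, the histone variant macroH2A (0.63), Nkg7, a granule protein of cytotoxic lymphocytes (0.63), H2-Q10 (0.60), Hsd3b7, an enzyme of bile acid synthesis (0.60), Rac2, a small GTPase of blood cells (0.59), and Sh3bgrl3 (0.58). H2-Q10 is a class I gene with close copies, so its estimated counts are uncertain. All 8 reached 0.4 within both classes, from 0.41 to 0.67 over HSC-like and from 0.47 to 0.74 over erythroid-like cells. They were again picked over the same cells. Nkg7 had a read in 24 cells. Of the other NK markers, Klrb1c, Ncr1 and Tbx21 had no read in either class. The lowest were Rhag, a red cell membrane protein (-0.59), C1qtnf12 (-0.58), Ppp2r1b, a scaffold of phosphatase 2A (-0.58), and Rps27l (-0.58), and all 4 were negative in both classes.

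**Figure D5:**
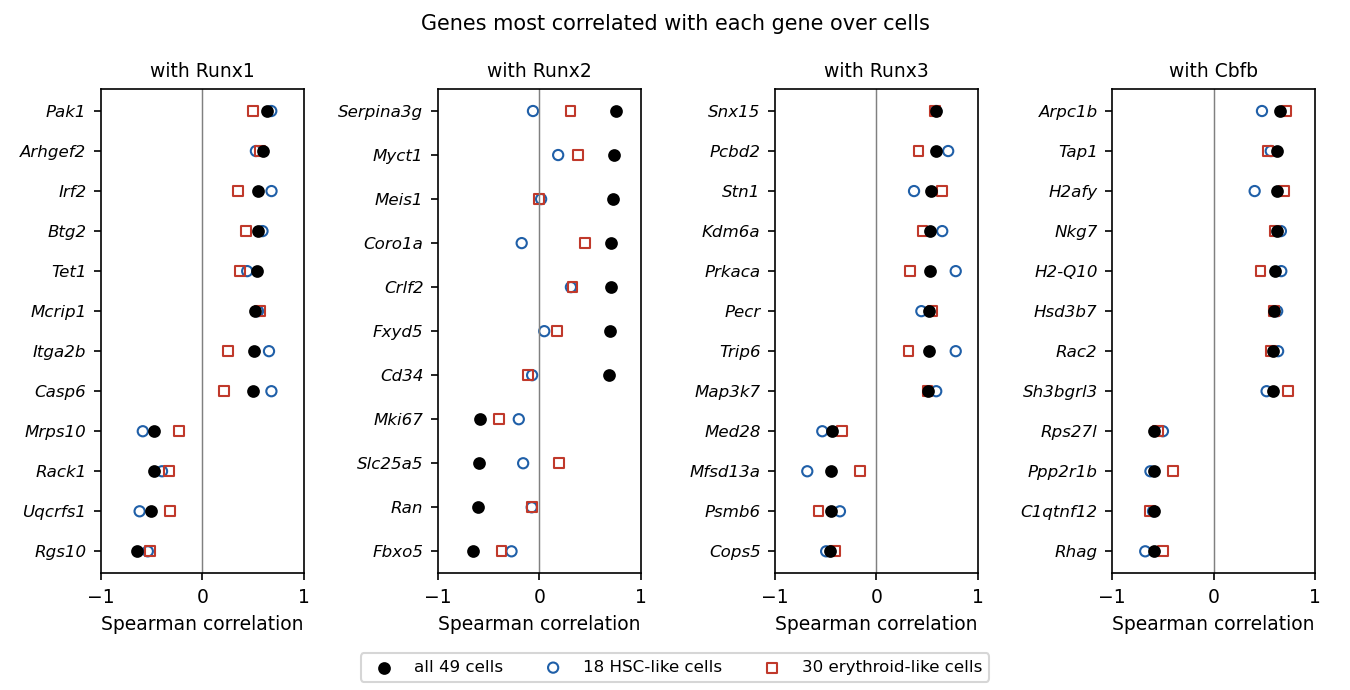
Spearman correlation (x axis) of each member with the genes highest (8, and 7 for Runx2) and the 4 lowest over 49 cells (black), and the same genes over 18 HSC-like cells (open blue circles) and 30 erythroid-like cells (open red squares). The 7 highest genes shown for Runx2 lie at 0.69 or more over all cells and at 0.31 or less over HSC-like cells, while the 8 of Cbfb lie at 0.41 or more in both classes.

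Genes that reached 0.4 with more than 1 member were counted, leaving the members out. With both Runx1 (71 genes) and Runx3 (80 genes), 0 genes did. Runx1 and Runx2 shared 35 genes, which is 49.3% of the 71 of Runx1 and 15% of the 234 of Runx2. Among the 35 were Meis1, Itga2b, Myct1, Hoxa7, Adgrg1, Tet1 and the immediate early genes Egr1, Jun and Ier2. Cbfb shared 15 genes with Runx1 (11% of its 136 and 21.1% of the 71), 41 with Runx2 (30.1% of its 136 and 17.5% of the 234) and 0 with Runx3. The shares of all genes compared that reached the mark were 0.786% with Runx1, 2.57% with Runx2, 0.874% with Runx3 and 1.49% with Cbfb. At those shares the counts of 0 with Runx3 lie near the background. Levels of a shared gene come from the same cells for both members, so the counts are not independent of the members' own correlation.

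Known partners of RUNX proteins were taken as a list. Of 26 partners and co-repressors, 24 were in the table and 20 passed the filter, and 0 reached 0.4 or -0.4 with Runx1, Runx2 or Runx3. Over all genes compared, 0.786%, 2.57% and 0.874% reached 0.4, and 0.306%, 3.17% and 0.12% reached -0.4. At those shares under 1 of 20 would be found on either side taken alone, so these counts lie near the background. With Cbfb, 1 of 20 did, the Groucho co-repressor Tle3 at -0.49, where 2.12% of all genes reached -0.4. The medians of the 20 were 0.06 for Runx1, 0.02 for Runx2, 0.08 for Runx3 and 0.01 for Cbfb, beside 0.01, -0.07, 0.05 and -0.04 over all genes compared. The highest with Runx1 was Cbfa2t2 of the ETO family (0.35), with Runx2 the acetyltransferase Crebbp (0.25), with Runx3 the histone methyltransferase Suv39h1 (0.24), and with Cbfb the chromatin remodeller Smarca4 (0.33). The lowest was Tle3 with Runx1 (-0.31) and with Runx2 (-0.37), and the co-repressor Ncor1 with Runx3 (-0.25). Several were found in nearly every cell, such as Smarca4 in 49 and Ncor1 in 48 cells.

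Of the 6 factors known to bind with RUNX1 at stem cell enhancers (Gata2, Tal1, Lyl1, Lmo2, Erg and Fli1), all passed the filter. With Runx1 0 of 6 reached 0.4, the highest being Lmo2 at 0.39 and Fli1 at 0.33. With Runx2 3 of 6 did, namely Erg (0.59), Fli1 (0.59) and Gata2 (0.44), and with Cbfb 1 did, Gata2 (0.53). Over all genes compared, 0.786% reached the mark with Runx1, 2.57% with Runx2, 0.874% with Runx3 and 1.49% with Cbfb. With Runx3 0 did, the highest being Tal1 at 0.15. The medians were 0.26 for Runx1, 0.41 for Runx2, 0.03 for Runx3 and 0.16 for Cbfb, beside 0.01, -0.07, 0.05 and -0.04 over all genes. The mean of Erg was 89.2 CPM over HSC-like cells, against 6.39 CPM over erythroid-like cells. The rho of Erg with Runx2 was 0.11 within HSC-like cells and 0.14 within erythroid-like cells. In the same order, Fli1 with Runx2 stood at -0.10 and 0.23, and Gata2 with Runx2 at -0.06 and 0.19. With Runx1, Gata2 was the highest of the 6 within HSC-like cells at 0.53, followed by Lmo2 at 0.23. Within erythroid-like cells Gata2 stood at 0.04 with Runx1, and the difference between the classes was not tested.

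Of 29 genes reported as RUNX targets in blood, 16 passed the filter and 6 had no read, a count without a background over all gene entries. With Runx1, 2 reached 0.4, Itga2b (0.51) and the cyclin gene Ccnd3 (0.44), where 0.786% of all genes did. Within HSC-like cells Ccnd3 stood at 0.73 and Itga2b at 0.66, against 0.01 and 0.25 within erythroid-like cells, a difference that was not tested. With Runx2, 6 reached 0.4 (2.57% of all genes did), among them Cd34 (0.69) and Itga2b (0.57). Klf1 stood at -0.53, where 3.17% of all genes reached -0.4. Within HSC-like cells these named genes stood near 0 with Runx2, Cd34 at -0.07, Itga2b at 0.15 and Klf1 at -0.10. Within erythroid-like cells they stood at -0.11, 0.04 and 0.17. With Cbfb, 1 did, the kinase gene Cdk6 (0.48), where 1.49% of all genes did. With Runx3, 0 did, where 0.874% of all genes did, the highest being Gfi1b, a repressor of erythroid and platelet precursors, at 0.33 and the lowest Cd34 at -0.27. The medians were 0.25 for Runx1, 0.35 for Runx2, 0.02 for Runx3 and 0.20 for Cbfb, beside the same all-gene medians of 0.01, -0.07, 0.05 and -0.04.

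Most of the T lineage genes that RUNX proteins regulate were found in few cells or none. Of 24 such genes, 10 had no read in any cell, among them Cd4, Itgae, Prf1, Gzmb and Ifng. The share of all gene entries without a read is not given here, so this count has no background beside it. For 0 of 49 cells, the share of cells with a read could be up to 6.12% (3 counts of 49). Cd8a was found in 5 cells, of which 0 reached 10 CPM, and Zbtb7b, which encodes ThPOK, in 6, of which 2 reached it. Gata3 had a read in 9 cells, of which 7 reached 10 CPM. Only Notch1 (a read in 12 cells, 7 at 10 CPM or more) and Itgb7 (16 cells, 12 at that level) passed the filter. Notch1 had rho 0.23 with Runx3 and -0.06 with Runx1, and Itgb7 -0.06 with Runx3 and 0.05 with Runx1.

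The RUNX motif was looked for in the promoter windows of the 50 genes most correlated with each member. A window held ACCACA or TGTGGT for 14% of these genes with Runx1, 22% with Runx2, 16% with Runx3 and 18% with Cbfb. Over all 7193 genes compared that have a window, the share was 14.3%. Windows cover 300 bases at a start, so enhancers are not seen.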

How the data were processed

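The authors deposited 1 table of estimated counts per gene (expected counts, 4.23% of values not whole) for 52 single cells. The submitters' processing notes name Trim Galore 0.5.0, Salmon 0.03.1 and the GRCm38 build. Transcript set and strand setting were not given in the sources used here. Reads of similar genes are divided by a model in such counts, which makes close copies uncertain. Counts were rounded and scaled to CPM of each cell's total (Python 3.11.15, pandas 2.3.3, scipy 1.17.1). Symbols, positions and exonic lengths came from GENCODE M21. Spearman correlation was computed for 9158 genes with a mean of 5 CPM and a read in 10 cells, and the step was tested on simulated data. Clusters came from Ward linkage of the first 10 principal components (log2(CPM + 1), the 1000 genes of highest variability, without the 4 members; scikit-learn 1.9.0), with 3 clusters chosen from 2 to 6 by silhouette. No doublet caller was run. Depth set the precision, and intervals are exact Clopper-Pearson 95% intervals. The rule for named genes took the members, the 8 genes with the highest and the 4 with the lowest rho per member, and list genes by count and extremes. Shared genes given as examples and cells named beyond the highest or lowest of a member were chosen after their values were seen. Alternatives were thinning, other filters, edgeR 4.0.16 TMM with singleton pairing, another correlation measure, k-means and leaving out cells. The members, lists and alternatives were chosen with earlier results of these data known. Tle5 and Prmt1 were not analysed here, and some genes that the naming rule takes are not reported here.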

Additional observations from a re-analysis of the deposited data

Results flagged for a closer look

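Runx1 had 108 reads in cell 5, which the filter left out of every comparison for its mitochondrial share of 28.3%. That is 352 CPM of a total of 307220 reads, a level exceeded by 4 of the 49 kept cells (7, 15, 16 and 20). Runx3 and Cbfb had 1 read each in that cell and Runx2 had 0. Of the other cells left out, cell 10 held 1 read of Cbfb and none of the Runx genes, and cell 12 held no read of the 4 genes.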

How the results depend on the processing

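Of the recomputed values of the main results, 427 moved by less than the spread or margin set for them and 41 moved further, for which the cause was not tested. For mean levels over all cells that spread was the SD over cells, which was above the mean for each member. Even a fall to no reads would thus have counted as within it. Many of the other values were rho with 1 cell left out, so the tally is a weak check. With 10 CPM in place of 1 read, Runx2 was found in 22.4% of cells (61.1% of HSC-like and 0% of erythroid-like cells), Runx3 in 59.2% (66.7% of erythroid-like cells), both Runx1 and Runx3 in 36.7%, and Runx3 in 54.5% of Runx1 cells. Thinned to the shallowest cell, 18.4% of cells held Runx2, 42.9% held both Runx1 and Runx3, and rho was 0.33 for Runx1 with Runx2 and -0.25 for Runx2 with Runx3. Thinned to 1000000 reads, which kept 36 cells, rho was -0.063 for Runx1 with Runx3, 0.0025 for Runx2 with Runx3, 0.064 for Runx2 with Cbfb and -0.28 for Runx3 with Cbfb. Within HSC-like cells rho was 0.33 for Runx1 with Runx2, -0.68 for Runx1 with Runx3, 0.073 for Runx1 with Cbfb, -0.39 for Runx2 with Runx3 and -0.14 for Runx2 with Cbfb. Within erythroid-like cells it was 0.20 for Runx1 with Runx2, 0.054 for Runx1 with Runx3, 0.13 for Runx2 with Runx3 and 0.075 for Runx2 with Cbfb. Pearson correlation of log2(CPM + 1) gave -0.24 for Runx2 with Runx3. Leaving out any 1 cell gave 0.40 to 0.48 for Runx1 with Runx2, -0.33 to -0.25 for Runx1 with Runx3, 0.23 to 0.33 for Runx1 with Cbfb, -0.16 to -0.07 for Runx2 with Runx3, 0.15 to 0.27 for Runx2 with Cbfb and -0.23 to -0.13 for Runx3 with Cbfb.

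Counts of correlated genes also moved. On cells thinned to 1000000 reads, 192 genes reached 0.4 and 374 reached -0.4 with Runx1, 126 and 45 with Runx3, and 473 reached -0.4 with Cbfb. With Pearson correlation, 16 reached -0.4 with Runx1, 156 reached 0.4 with Runx2, and 81 reached 0.4 and 63 reached -0.4 with Cbfb. A read in 25 cells left 149 genes at 0.4 with Runx2, since fewer genes were compared. Without cells 9, 13, 23 and 34, the genes at -0.4 were 160 with Runx1, 686 with Runx2, 20 with Runx3 and 378 with Cbfb. Of the 8 genes highest with each member, 1 for Runx1, 3 for Runx2, 4 for Runx3 and 3 for Cbfb were among the highest 8 on cells thinned to 1000000 reads, and 5, 8, 5 and 7 among the highest 50. Over the alternatives applied to them, 254 of 280 values for the genes taken by the naming rule stayed within 0.1 and 0 changed sign. Those alternatives include other limits on the cells with a read, which leave rho unchanged by construction. Values within the classes are not among them. There some genes taken for Runx2 changed sign, such as Cd34 (-0.07 over HSC-like cells), while all genes taken for Runx1, Runx3 and Cbfb kept theirs. Runx2 in erythroid-like cells averaged 6.25 CPM with k-means (34 cells) and 2.33 CPM when cells were clustered after thinning (31 cells). With 1 group of cells and no named animal, no alternative gives a spread between animals, and low levels of 1 to 3 reads limit what can be said of any single cell. No paired analysis was possible because the labels give 1 group.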
